A study of Mus musculus with 12 samples.

Results

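The genes described here are 10 genes that mononuclear phagocytes, the macrophages and dendritic cells of a tissue, are known to express: Csf1r, Adgre1, Cd68, C1qa, C1qb, C1qc, Lyz2, Itgax, Itgam and Mrc1. They were taken by name, as every probe whose accession maps to one of them, which gave 15 probes. A detection filter asked for signal well above background throughout 1 group of 3 arrays. It kept 12 of the 15 probes, which cover all 10 genes, out of 15583 named genes and 26107 features (genes and unnamed accessions) in all. They were measured in duodenal RNA of 12 male mice, 1 Agilent one-colour array per mouse. The 4 groups of 3 mice were Akp3-/- mice (intestinal alkaline phosphatase knockouts, here KO) given IIAEK, KO mice given vehicle, wild-type (WT) mice given IIAEK, and WT mice given vehicle. IIAEK is a pentapeptide, named by its amino acids in one-letter code, and was given by mouth at 600 mg/kg each day. Vehicle was carboxymethylcellulose sodium at 5 g/L. All mice were 7 weeks old at the start, were dosed for 14 days per their titles (source labels of IIAEK samples give longer times) and fasted for 8 h before sampling. How the knockout was made and the background strain are not given in the sources used here.

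Intestinal macrophages lie under the epithelium and in the muscle layer, clear dying cells and bacteria, and are replenished in large part from blood monocytes. Their survival depends on the receptor encoded by Csf1r. Dendritic cells share several of the same genes, carry antigen to lymph nodes and are marked by the integrin encoded by Itgax. Intestinal alkaline phosphatase removes phosphate groups from bacterial endotoxin, a molecule that phagocytes sense. Because RNA came from tissue and not from sorted cells, fewer cells of a type and less RNA per cell cannot be told apart here.

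Levels are log2 intensities relative to the 75th percentile of their array, so a level of 0 is that percentile and levels of different probes cannot be ranked. Differences are log2 differences, KO minus WT or IIAEK minus vehicle, tested with limma over all 26107 features; a call is a Benjamini-Hochberg adjusted p under 0.05. Nothing in the labels says more than that each array is a separate mouse, and the 3 arrays per group limit the precision. The share of probes detected above background ran from 56.0% to 64.0% per array, with no saturated spot. Arrays lay on 2 slides scanned on different days. Slide 1 held 7 arrays and slide 2 held 5, and each slide held arrays of all 4 groups. Slide 2 held replicate 3 of each group and KO vehicle replicate 2, so some groups had a single array on a slide. Akp3, the deleted gene, was at -4.64, -4.42 and -4.90 in KO under IIAEK and at -4.01, -3.80 and -4.23 in KO under vehicle, against 1.29, 1.05 and 2.72 in WT under IIAEK and 2.27, 2.04 and 1.70 in WT under vehicle. All KO arrays thus lay below all WT arrays, and limma called the averaged comparison (adjusted p = 8.4e-07). The probe was well above background on 6 of 6 WT arrays and 3 of 6 KO arrays (1 under IIAEK and 2 under vehicle), so its KO levels are near background and no fold is given. A second Akp3 probe was well above background on 6 of 6 WT arrays and 0 of 6 KO arrays. Of the macrophage markers checked, 12 of 12 were well above background on every array. Of the dendritic cell markers, 6 of 8 were, while Zbtb46 was so on 7 arrays and Xcr1 on none. The 6 enterocyte markers checked were well above background on every array.

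C1qa, C1qb and C1qc encode the 3 chains of C1q, the molecule that starts the classical complement pathway and that tissue macrophages are a main source of. Their levels moved together over the arrays, so the upstream sequences of the 2 of them that the RefSeq promoter table (GRCm38.p6) holds are shown. Capitals mark GAGGAA or its reverse complement TTCCTC, the core bound by PU.1, a transcription factor that macrophage genes depend on. C1qb lies on the minus strand, and the 250 bases before its start are chr4:136886201-136886450. C1qc is on the same strand, with its 250 bases at chr4:136892915-136893164.
C1qb: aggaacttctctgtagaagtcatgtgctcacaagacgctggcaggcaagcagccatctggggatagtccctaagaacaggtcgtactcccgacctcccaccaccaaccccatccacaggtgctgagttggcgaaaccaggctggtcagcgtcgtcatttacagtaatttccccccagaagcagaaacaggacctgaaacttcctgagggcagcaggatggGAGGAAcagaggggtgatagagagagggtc
C1qc: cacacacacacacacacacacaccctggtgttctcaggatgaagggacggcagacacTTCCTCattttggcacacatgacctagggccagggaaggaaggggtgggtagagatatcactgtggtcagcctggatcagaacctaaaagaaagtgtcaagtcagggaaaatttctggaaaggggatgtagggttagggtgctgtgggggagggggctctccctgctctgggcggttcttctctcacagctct
The match in C1qb is on the sense strand at position -30 from the transcription start. The match in C1qc is on the antisense strand at position -193. Of the 7 member genes searched in this way, 5 held the motif on either strand (Cd68, C1qb, C1qc, Itgam and Mrc1), and Lyz2 and Itgax did not. Of all 32851 promoters searched over the same length, 23.3% held it. Such a match is a run of letters and not a measured binding site.

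No member passed the threshold in any comparison of KO with WT. Under vehicle 0 of 10 members were called, where 0.00766% of all features were. Under IIAEK 0 of 10 were called, again against 0.00766% of features, and averaged over the treatments 0 of 10 against 0.0192%. At an unadjusted p under 0.05, limma gave 1 member under vehicle (Itgam, 0.0302), 0 under IIAEK and 1 averaged (C1qa, 0.0426). By the same measure it gave 560 features higher and 446 lower under vehicle, 108 and 235 under IIAEK, and 357 and 435 averaged. Of the 10 members, 9 had a difference above 0 under vehicle, as had 54.6% of all features. The members' median was 0.28, beside 0.03 over all features. That median was -0.071 on slide 1 alone, 0.42 on slide 2 alone and 0.10 without KO vehicle replicate 2. Under IIAEK 7 of 10 were above 0, against 47.5% of features, with a median of 0.14 beside -0.01. Averaged over the treatments 10 of 10 were above 0, against 52.3% of features, with a median of 0.16 beside 0.01. Some members vary together over the same arrays, so these counts are not of independent genes. The averaged comparison uses the arrays of the other 2, so it adds no separate mice.

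**Figure D1:**
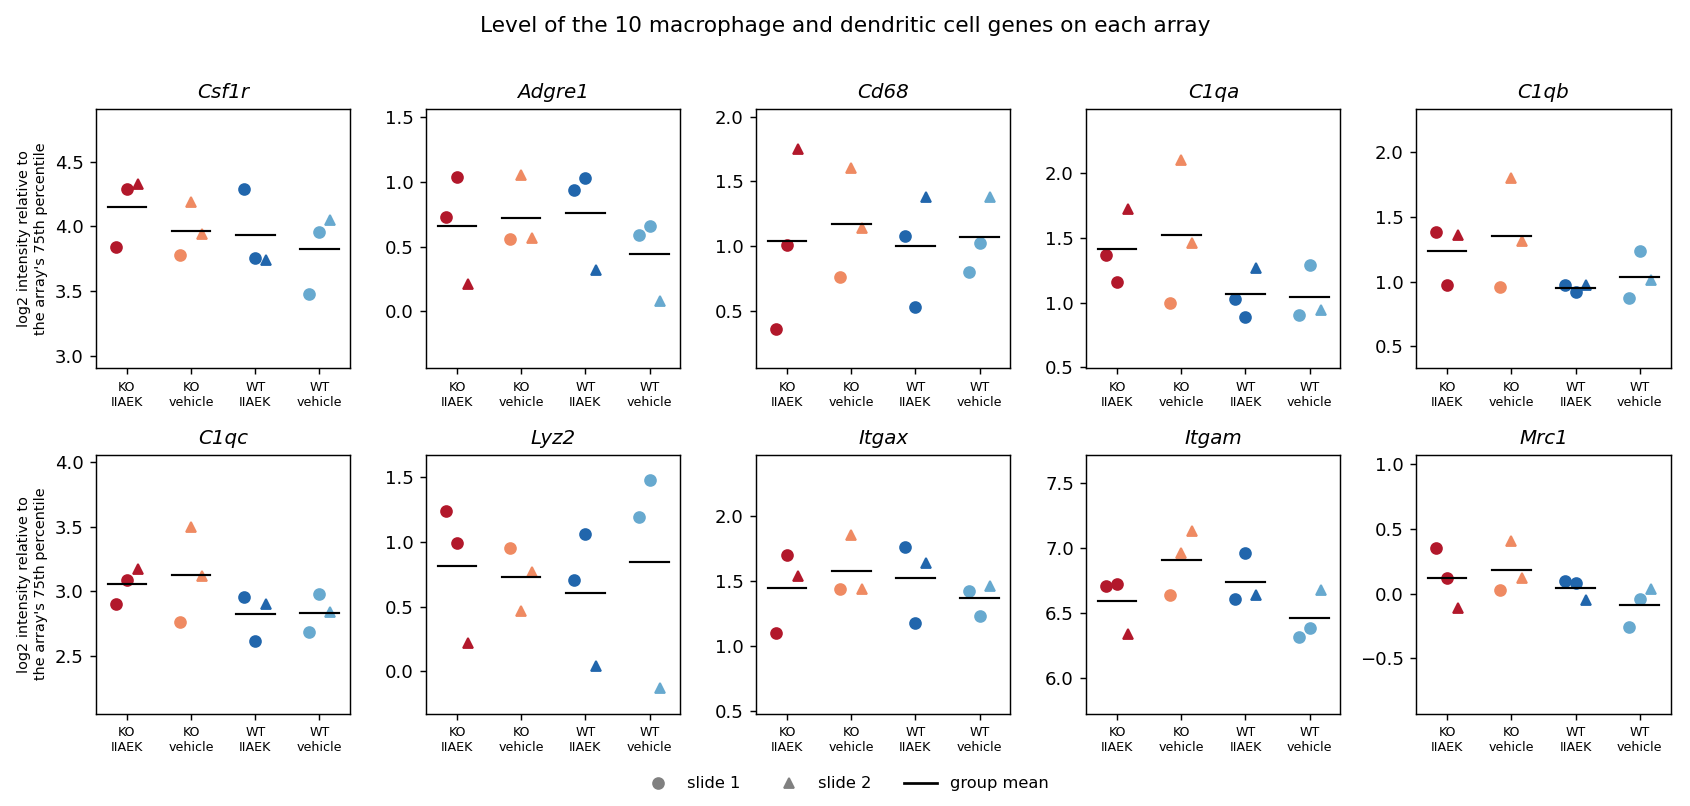
Level of each of the 10 genes (log2 intensity relative to the array's 75th percentile) on each of the 12 arrays, by group; circles are arrays of slide 1, triangles arrays of slide 2, and lines are group means. The levels of C1qa, C1qb and C1qc reach their highest value on the same KO vehicle array, Cd68 lies higher on slide 2 and Lyz2 mostly lower.

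C1qa had the largest averaged difference among the members. It was at 1.37, 1.16 and 1.72 in KO under IIAEK and at 0.999, 2.10 and 1.46 in KO under vehicle, against 1.03, 0.89 and 1.27 in WT under IIAEK and 0.90, 1.29 and 0.94 in WT under vehicle. The genotypes overlapped, with 4 of 6 KO arrays above the highest WT array. The averaged log2 difference was 0.42 ± 0.18 (SE; 95% interval 0.02 to 0.82), a fold of 1.33, and did not pass (limma adjusted p = 0.999).

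C1qb was at 1.38, 0.97 and 1.36 in KO under IIAEK and 0.96, 1.80 and 1.31 in KO under vehicle, against 0.97, 0.92 and 0.97 in WT under IIAEK and 0.87, 1.24 and 1.01 in WT under vehicle. Under IIAEK it was the 1 member whose KO arrays all lay above the WT arrays, an outcome that 3.85% of features had in either direction. The averaged difference was 0.30 with a 95% interval of -0.02 to 0.62. C1qc was at 2.90, 3.09 and 3.17 in KO under IIAEK and 2.76, 3.50 and 3.12 in KO under vehicle, against 2.96, 2.62 and 2.90 in WT under IIAEK and 2.69, 2.98 and 2.84 in WT under vehicle. It was 0.26 higher averaged over treatments, with an interval of -0.03 to 0.55. For each chain 4 of 6 KO arrays exceeded the highest WT array, and KO vehicle replicate 2 was the highest of the 12.

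The size of the C1q differences moved with slide and with that array, which itself lies on slide 2, so these are not separate influences. On slide 1 only KO vehicle is a single array, whereas on slide 2 every group but KO vehicle is. On slide 1 alone the averaged differences of C1qa, C1qb and C1qc were 0.11, 0.07 and 0.07, and on slide 2 alone 0.64, 0.47 and 0.37. With slide as a term they were 0.36, 0.27 and 0.23, and without KO vehicle replicate 2 they were 0.27, 0.19 and 0.17. None of these values passed the threshold. The part of the slide or of this array in the differences was not tested.

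The surface receptors showed smaller differences. Csf1r, the receptor for the growth factors CSF1 and IL-34, was at 3.84, 4.29 and 4.33 in KO under IIAEK and 3.78, 4.19 and 3.94 in KO under vehicle, against 4.29, 3.76 and 3.74 in WT under IIAEK and 3.48, 3.96 and 4.05 in WT under vehicle. The groups overlapped, and the averaged difference was 0.18 (95% interval -0.15 to 0.52). A second Csf1r probe, also well above background on all 12 arrays, gave 0.11. Adgre1 encodes the antigen by which mouse macrophages are classically marked, and its averaged difference was 0.09 (-0.32 to 0.50). Its levels ran from 0.21 to 1.05 on KO arrays and from 0.08 to 1.03 on WT arrays. Its second probe was well above background on 0 of 12 arrays.

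Mrc1 encodes CD206, a mannose receptor by which macrophages take up glycoproteins. It was at 0.35, 0.12 and -0.11 in KO under IIAEK and 0.03, 0.41 and 0.12 in KO under vehicle, against 0.10, 0.08 and -0.05 in WT under IIAEK and -0.26, -0.04 and 0.04 in WT under vehicle. Here too 4 of 6 KO arrays lay above the highest WT array, and the averaged difference was 0.17 (-0.08 to 0.42). It was 0.085 on slide 2 alone and 0.058 with the stomach and pancreas gene scores of each array as covariates.

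Itgam and Itgax encode CD11b and CD11c, the alpha chains that pair with the beta-2 integrin chain on myeloid cells. Itgam was at 6.71, 6.72 and 6.34 in KO under IIAEK and 6.64, 6.96 and 7.13 in KO under vehicle, against 6.61, 6.96 and 6.64 in WT under IIAEK and 6.31, 6.38 and 6.68 in WT under vehicle. Under vehicle 2 of 3 KO arrays lay above the highest WT array, and the log2 difference was 0.45 ± 0.18 (SE; 95% interval 0.05 to 0.85; limma adjusted p = 0.993). Under IIAEK it was -0.14, and the averaged value was 0.15 (-0.13 to 0.44). With the stomach and pancreas gene scores as covariates, the difference under vehicle was 0.20 and the averaged one 0.011. A second Itgam probe, annotated to another accession, lay far lower, at -6.45 to -3.98. It was well above background on 2 of 12 arrays and was left out of the tests. All Itgam results thus rest on the brighter probe, and whether that probe reads Itgam RNA alone was not tested. Itgax levels ran from 1.10 to 1.86 on KO arrays and from 1.18 to 1.76 on WT arrays. Its averaged difference was 0.06 (-0.25 to 0.38), and its second probe was likewise well above background on 0 of 12 arrays.

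Cd68, a glycoprotein of phagocyte lysosomes, and Lyz2, the lysozyme of myeloid cells, differed more between slides than between groups. Cd68 was at 0.36, 1.01 and 1.75 in KO under IIAEK and 0.76, 1.60 and 1.14 in KO under vehicle, against 1.08, 0.53 and 1.38 in WT under IIAEK and 0.80, 1.02 and 1.38 in WT under vehicle. Its 5 arrays of slide 2 lay between 1.14 and 1.75, all above the 7 arrays of slide 1 at 0.36 to 1.08. It was the 1 member whose slides did not overlap, where 12.8% of features had slides apart in either direction. The second Cd68 probe showed a like gap, 0.61 beside 0.65. The averaged difference of KO from WT was 0.07 (-0.47 to 0.61).

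Lyz2 was at 1.24, 0.99 and 0.22 in KO under IIAEK and 0.95, 0.47 and 0.77 in KO under vehicle, against 0.71, 1.06 and 0.04 in WT under IIAEK and 1.19, 1.48 and -0.13 in WT under vehicle. Slide 2 arrays lay at -0.13 to 0.77 and slide 1 arrays at 0.71 to 1.48, a difference in mean of -0.81. Its averaged difference of KO from WT was 0.05, with the widest interval of the members, -0.60 to 0.69. Under vehicle its difference was -0.12 over all arrays, -0.39 within slide 1 and 0.75 within slide 2. Slide 1 held a single KO vehicle array (0.95) and slide 2 a single WT vehicle array (-0.13). The close copy Lyz1, made by Paneth cells, was at 8.0 to 9.0 over the 12 arrays, and whether the Lyz2 probe also binds Lyz1 RNA was not tested.

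**Figure D2:**
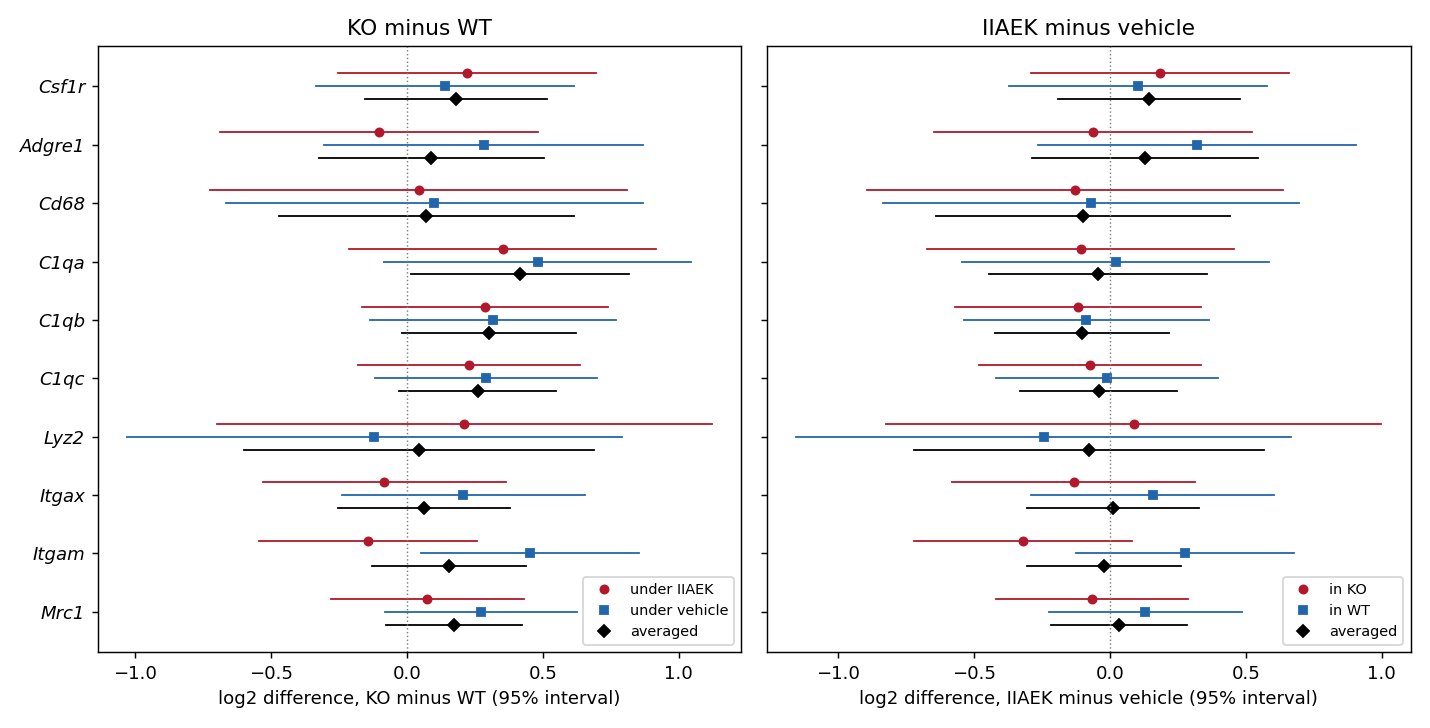
Log2 difference of each gene between KO and WT mice (left) and between IIAEK and vehicle (right), with bars for limma's 95% interval; red is under IIAEK (left) or in KO (right), blue under vehicle or in WT, and black the average of both. Left, all black marks lie above 0 and the interval of C1qa runs from 0.02 to 0.82; right, every interval includes 0.

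IIAEK did not move the members past the threshold in either genotype. In KO mice 0 of 10 were called, in WT mice 0 of 10 and averaged over genotypes 0 of 10, and the share of all features called was 0% in each. At an unadjusted p under 0.05 limma gave no member in these comparisons, beside 213 features higher and 286 lower in KO, 444 and 375 in WT, and 314 and 453 averaged. In KO 2 of 10 members had a difference above 0, against 49.2% of features, with a median of -0.09 beside -0.00 over all features. In WT 6 of 10 were above 0, against 56.3% of features, with a median of 0.06 beside 0.03. The averaged differences ran from -0.10 for C1qb to 0.15 for Csf1r. Their 95% intervals still allowed sizeable differences, the widest being Lyz2 at -0.72 to 0.57 and the narrowest Mrc1 at -0.22 to 0.28.

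The difference between genotypes in the IIAEK effect was tested as well. Of the members 0 of 10 were called and 0% of features were. Itgam alone had an unadjusted p under 0.05 (0.0409), among 154 features higher and 244 lower. IIAEK minus vehicle for Itgam was -0.32 in KO and 0.28 in WT, which makes a difference of -0.60 ± 0.26 (SE; 95% interval -1.16 to -0.03; limma adjusted p = 1). Adgre1 had the next largest value, -0.38, with an interval of -1.21 to 0.44.

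Among the members, the C1q chains tracked each other most closely. Over the 12 arrays, C1qa and C1qb had Pearson r = 0.94 and Spearman rho = 0.90, with a permutation p of 0.00135 for r after adjustment over the 45 pairs of members. C1qa and C1qc had r = 0.91 and rho = 0.89 (adjusted permutation p = 0.00135), and C1qb and C1qc r = 0.83 and rho = 0.76 (0.0187). Leaving out the 2 arrays farthest from the median of the first-named gene of each pair gave 0.84, 0.76 and 0.77. Within slide 1 the values were 0.93, 0.70 and 0.42, and slide 2 holds too few arrays for one. With group means removed they were 0.92, 0.87 and 0.75.

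Other pairs were less alike. Of the 45 pairs, 35 had r above 0 and 10 below, with a median of 0.29, and the 3 C1q pairs were those whose r passed. Itgam and Mrc1 had r = 0.69 and rho = 0.83, of which rho passed after adjustment (0.0280) and r did not (0.0875). Csf1r and C1qc had r = 0.69, and so did Cd68 and Itgax. Cd68 and Lyz2 ran opposite, at r = -0.76 and rho = -0.80 (adjusted permutation p 0.0529 and 0.0346). Without the 2 arrays farthest from the median of Cd68 their r was -0.71, and with group means removed -0.79. Both genes differ between slides, and within slide 1 their r was -0.25.

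**Figure D3:**
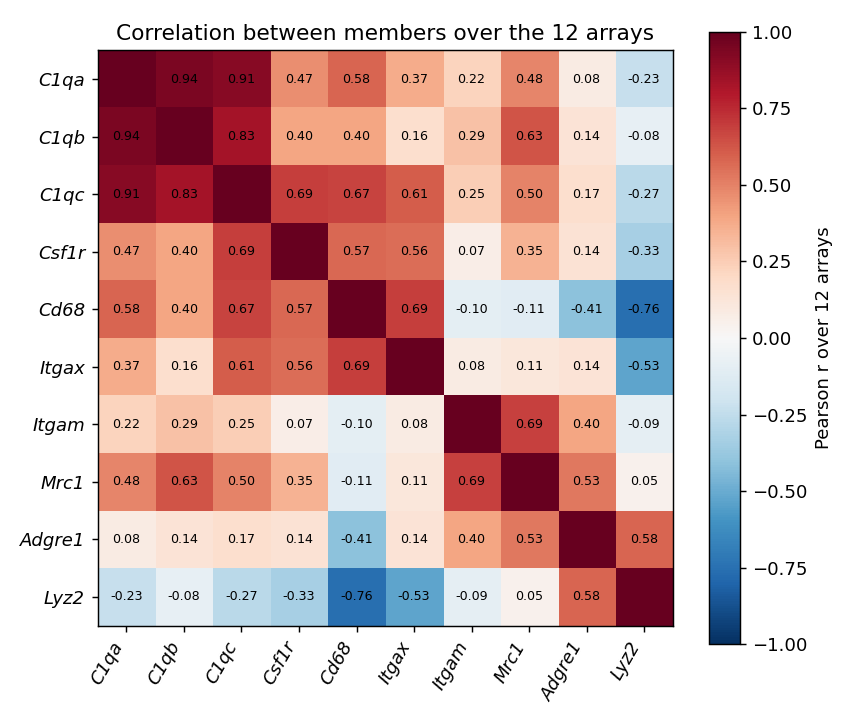
Pearson r between the levels of each pair of the 10 genes over the 12 arrays, from blue (negative) to red (positive), with the value in each cell. The 3 C1q genes form the block of highest values, 0.83 to 0.94, and Cd68 with Lyz2 is lowest at -0.76.

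Set on a common scale, each gene's level minus its mean over the arrays and divided by its SD, the 10 members averaged 1.43 on KO vehicle replicate 2. The next array, KO IIAEK replicate 2, had 0.38, and the lowest, WT vehicle replicate 1, had -0.84. On KO vehicle replicate 2, 9 of the 10 members were above their own mean and Lyz2 was below it. Among the other gene lists, it had the highest mean of the 12 arrays for other macrophage genes (1.03), CSF1 and recruitment genes (-0.38), plasma cell genes (3.71) and pancreas genes (9.84), and the lowest for Paneth cell genes (6.99). Its mean over the neutrophil and monocyte genes was 1.25, also the highest of the 12 arrays, where KO IIAEK arrays had 0.43 to 0.92 and WT arrays -0.26 to 0.63. The part of these genes in the members' values was not tested.

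**Figure D4:**
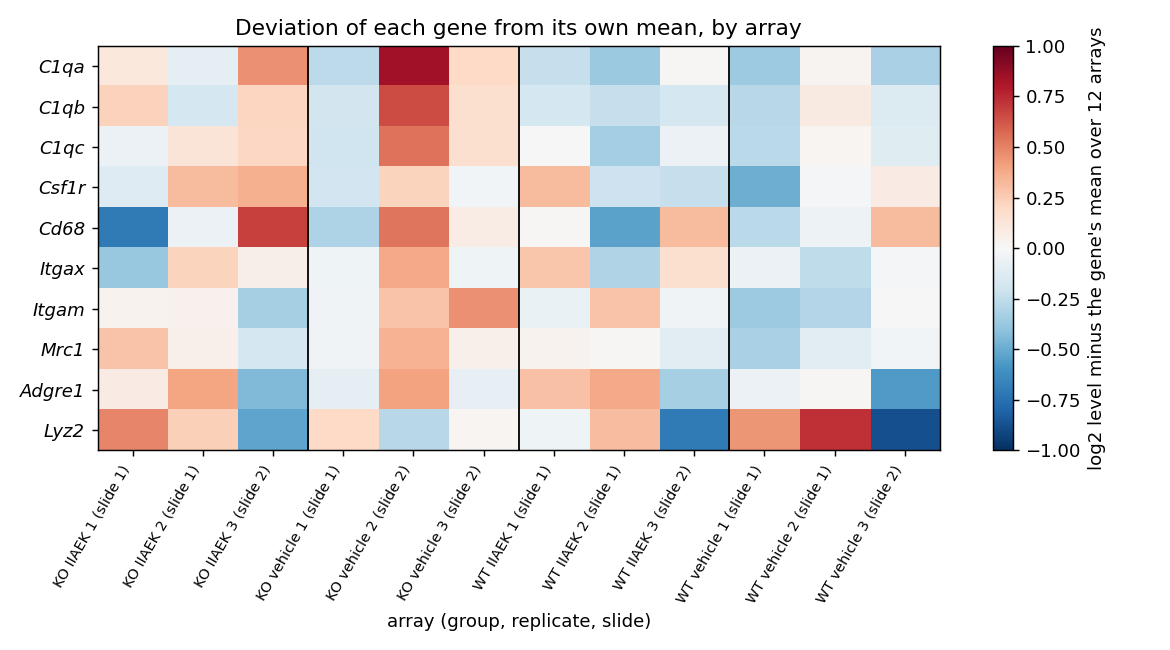
Level of each gene on each array minus that gene's mean over the 12 arrays (log2), from blue (below) to red (above), with vertical lines between groups. KO vehicle replicate 2 is above the mean for 9 of 10 genes, all but Lyz2.

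Named genes whose levels followed the members' common-scale mean most closely over the 12 arrays, among 15573 named genes, were Aoah (r = 0.93), Ifitm6, Tbxas1 and Plat (each 0.91), Clec4a1, Il12rb1 and Slc11a1 (each 0.90) and Vsir (0.87). With group means removed they were Cacna1s (0.98), Gabarapl1 (0.94), Pik3ap1 and Tbxas1 (each 0.92), Slc39a8 (0.91), and Krtap5-3, Ifitm6 and Ltb4r1 (each 0.90). Tbxas1 and Ifitm6 stood in both rankings. Each of the 8 genes in either ranking was highest on KO vehicle replicate 2. Over the 11 arrays without it, a check chosen after seeing the data, their r ran from 0.76 to 0.85 for levels and from 0.66 to 0.92 with group means removed.

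Other genes of the same cells and pathways were read from lists. No gene of any list was called higher or lower in KO than in WT averaged over treatments. In that comparison 52.3% of all features were above 0, with a median of 0.01. Of 23 other macrophage genes tested, 14 were above 0 and 9 below, with a median of 0.11. Among them Folr2, a folate receptor of tissue macrophages, differed by 0.59 and Cd14, the endotoxin co-receptor, by 0.40. Folr2 levels were low, at -4.45 to -2.69, a range that overlaps the near-background KO levels of Akp3. Of 13 genes of CSF1 signalling and monocyte recruitment, 8 were above 0 and the median was 0.02. Il34, a ligand of the Csf1r product, was at 0.23. Of 12 dendritic cell genes, 9 were above 0 with a median of 0.08, among them the transcription factor gene Irf8 at 0.14, while the migration receptor gene Ccr7 was at -0.57. WT vehicle replicates 1 and 2 had Ccr7 levels of 0.61 and -0.22, against -2.29 to -1.52 on the other 10 arrays, and under IIAEK, where neither array enters, its difference was 0.11.

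Of 16 other complement genes, 10 were above 0 with a median of 0.05, beside 0.26 to 0.42 for the C1q chains. C2, which C1q-bound proteases cleave, was at 0.31 ± 0.13 (SE; unadjusted p 0.0361), and C3ar1, the receptor for the C3a fragment, at 0.59. C3ar1 levels were low, at -4.03 to -1.86, and also overlap the near-background KO levels of Akp3. Cr2, a complement receptor of B cells, was at -1.58, and it was high on WT vehicle replicates 1 and 2 (2.12 and 1.07, against -3.44 to -1.69 on the other 10 arrays). Under IIAEK its difference was -0.22. Of 5 integrin partners tested, 3 were above 0, with Itgb2, the beta-2 chain itself, at 0.27. Of 8 lectin and scavenger receptors related to Mrc1, 4 were above 0 and the median was -0.01.

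Genes of other blood cells and of neighbouring tissue also differed between the arrays. Of 7 neutrophil and monocyte genes tested, 7 were above 0 in KO against WT with a median of 0.29, and Ly6c2, a mark of inflammatory monocytes, was at 0.38 ± 0.13 (SE; unadjusted p 0.0136). S100a9, a neutrophil and monocyte protein gene, was at 1.77 with an SE of 0.90. The mean of this list per array was 0.43 to 0.92 in KO under IIAEK and 0.33 to 1.25 in KO under vehicle, against -0.07 to 0.19 in WT under IIAEK and -0.26 to 0.63 in WT under vehicle. Of its 5 defining markers on the array, 2 were well above background on all arrays. T cell genes were above 0 in 11 of 11 (median 0.24), plasma cell genes in 6 of 6 (0.25) and B cell genes in 0 of 6 (-1.0). The B cell gene mean was 1.06 and 0.35 on WT vehicle replicates 1 and 2 and -1.47 or lower on the other 10 arrays. Under IIAEK, 3 of 6 B cell genes were above 0, with a median of -0.09. Of 7 eosinophil genes tested, 5 were above 0 averaged over treatments, with a median of 0.14. Under vehicle 6 of 7 were (0.47) and under IIAEK 2 of 7 (-0.16), and no eosinophil gene was called. The part of eosinophils in the members' values was not tested.

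Stomach and Brunner's gland mucous genes averaged 4.30 to 5.83 on 6 arrays, 1 of KO IIAEK, 1 of KO vehicle, 1 of WT IIAEK and all 3 of WT vehicle, and lay at -0.55 or below on the other 6. Pancreas genes averaged 3.17 on WT vehicle replicate 1 and 8.11 to 9.84 elsewhere. Smooth muscle genes averaged 2.44 to 3.60 on slide 2 and 1.74 to 2.78 on slide 1. With the stomach and pancreas means as covariates, the averaged differences of C1qa, C1qb and C1qc were 0.38, 0.22 and 0.20 and the members' median was 0.09. Beyond these covariate fits, the part of other tissue in the members' levels was not tested.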

How the data were processed

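Total RNA of duodenum from 12 mice was hybridised to 12 one-colour (Cy3) arrays. Per the file headers, Feature Extraction 10.7.3.1 produced the deposited intensity files; the processed intensity is background-subtracted and detrended, not scaled between arrays. The authors' deposited value table holds log2 values. Compared with the scanner files it matched log2 intensity less the array's 75th percentile and less the probe's median over arrays (r at least 0.999996), so its direction and scale are known and a probe's level cannot be read from it. Its column medians were 0.12, -0.04 and 0.08 (KO IIAEK), -0.05, -0.09 and 0.09 (KO vehicle), -0.06, 0.04 and 0.07 (WT IIAEK) and -0.07, -0.08 and 0.13 (WT vehicle).

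Here control spots (3671 of 62976) and spots with outlier flags were left out (22 of 56605 probes lost), spots of a probe were averaged and each array's 75th percentile (195 to 465 intensity units) was subtracted on the log2 scale. Accessions were matched without versions to RefSeq gene names, for 32978 of 56583 probes. Probes were kept if detected well above background throughout 1 group of 3 arrays, and the brightest stood for its gene. Limma 3.58.1 (R 4.3.3; lmFit with 1 mean per group, eBayes with intensity trend) gave 7 contrasts, two-sided, adjusted over 26107 features. The median SE was 0.243 between 2 groups, 0.172 averaged and 0.344 for the difference between genotypes. A planned comparison of protein sequences was not run. Scripts were tested on simulated data. Correlations used 100000 permutations.

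All 10 members are named in every comparison. Of each other list, up to 3 genes with the smallest p in the averaged KO contrast could be named, and some of them are not reported here. Members, lists and alternatives were chosen with earlier results of these data known. Alternatives changed the background correction (normexp on median signals, with an offset of 50), scaling, filter, probe choice, variance model, slide, replicate block, tissue covariates, source table and single arrays.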

Additional observations from a re-analysis of the deposited data

How the results depend on the processing

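Over 25 alternatives, 12 of which leave out 1 array, 0 of 10 members were called in any of the 7 comparisons, and the smallest adjusted p of a member was 0.175. Of 1750 member values under the alternatives, 173 had another sign than in the report. Many of these values could not change, as where the array left out was in neither group compared or only the variance model changed. The share with another sign is therefore no measure of how stable the signs are. The members' median difference of KO from WT under vehicle, 0.28 in the report, was -0.071 on slide 1 alone and 0.10 to 0.36 when 1 array was left out, lowest without KO vehicle replicate 2. The median of IIAEK against vehicle in KO, -0.09, was 0.21 on slide 1 alone and -0.23 to 0.093 when 1 array was left out, highest without KO vehicle replicate 2. The median of the difference between genotypes, -0.10, was -0.29 on slide 2 alone and -0.27 to 0.14 when 1 array was left out, lowest without KO vehicle replicate 1 and highest without KO vehicle replicate 2. Lyz2 in KO against WT under vehicle, -0.12 over all arrays, turned to 0.75 on slide 2 alone, where WT vehicle had a single array. The cause of this change of sign was not tested. The averaged median, 0.16, was 0.06 to 0.31 under the other 13 alternatives and 0.12 to 0.22 without 1 array. Each replicate number occurs in every group, so the replicate block cannot change a log2 difference, only its SE. Its medians of 0.28 under vehicle and 0.16 averaged were thus fixed by the design. It changed no call. Same-numbered arrays had deviation correlations of -0.25 to 0.70, above 0.1 in 11 of 18 pairs. Differently numbered arrays were not compared and replicate number goes partly with slide, so these values cannot decide whether same-numbered arrays are pairs. The main fit takes no pairs. With 3 arrays a group, differences well under the intervals given were not detectable, and probes not well above background carry no level.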
